A study of Mus musculus with 7 samples.

Results

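The colony-stimulating factor receptors of microglia and the ligand Csf1 were examined in cells of 2 developmental origins. The group was taken by gene symbol and holds 6 genes of the 14594 in the table, namely Csf1r, Csf1, Csf2ra, Csf2rb, Csf2rb2 and Csf3r, and all 6 passed the filter on low counts that left 11874 genes for testing. Microglia were sorted from the cortex of 12-week-old C57BL/6 mice of the genotype Cx3Cr1GFP/+; Hoxb8IRES-Cre/+; ROSA26CAG-LSL-tdTomato/+, by trypsin digestion without the meninges, capture on CD11b beads and sorting for the reporters. Cells with tdTomato and GFP are called Hoxb8 microglia here (3 libraries), since Cre from the Hoxb8 locus switches the red reporter on for good in a cell and its descendants. Cells with GFP alone are called non-Hoxb8 microglia (4 libraries). Both groups carry all 3 alleles, GFP takes the place of 1 copy of Cx3cr1 in both, and the labels name 4 animals for the 7 libraries. Setting the groups side by side asks which genes are transcribed at other levels in the Hoxb8 lineage.

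CSF-1 is a growth factor that acts through the receptor tyrosine kinase Csf1r, which also binds interleukin 34. Microglia need Csf1r to survive, and its loss or inhibition empties the brain of most of them. GM-CSF acts through a ligand-binding alpha chain, Csf2ra, joined to the signalling beta chain Csf2rb, which IL-3 and IL-5 receptors share, while mice carry a second, IL-3-specific beta chain, Csf2rb2. G-CSF acts through Csf3r, a receptor best known from neutrophils and their precursors. The beta chains and Csf3r signal through JAK kinases and STAT proteins.

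Depth ran from 7189075 to 7635360 gene counts per Hoxb8 library, against 5915261 to 7741934 per non-Hoxb8 library (two-sided exact permutation p = 0.371, over 35 splits). Among microglial markers, P2ry12 stood at 8650 to 10600 CPM (counts per 1000000 of the scaled library total) in Hoxb8 cells, against 7240 to 11000 CPM in non-Hoxb8 cells. Tmem119 stood at 1450 to 1540 CPM in Hoxb8 cells, against 1260 to 1970 CPM in non-Hoxb8 cells, and Sall1 at 1010 to 1410 CPM in Hoxb8 cells, against 980 to 1590 CPM in non-Hoxb8 cells. These 3 were chosen after their values were seen, and 0 of them were called by edgeR. RNA of Xist and of Y-linked genes occurred together in libraries 21, 22 and 25. Libraries 13 and 14 had little Xist RNA (23.2 and 15.1 CPM) and Y-linked sums of 293 and 269 CPM. Libraries 5 and 6 had Xist at 22500 and 15000 CPM and Y-linked sums of 0.412 and 0 CPM. All 6 genes are autosomal, but the part of sex in their levels was not tested. Libraries 13 (non-Hoxb8) and 14 (Hoxb8) stood apart in inflammatory RNA. Log2 fold changes of Csf1, Csf2ra and Csf2rb2 are also given without them, while spreads and nearest profiles used all 7 libraries. The labels do not state that each library is a separate animal, so p-values measure the spread between these libraries. In RNA from a bulk of cells, fewer cells of a type and less RNA per cell cannot be told apart.

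None of the 6 genes was called higher or lower in Hoxb8 microglia by edgeR (quasi-likelihood test, Benjamini-Hochberg adjusted over all genes; 0 of 6, with 0 at an unadjusted p below 0.05), where 0.0337% of all tested genes were called and 3.52% had an unadjusted p below 0.05. DESeq2 called 0 of the 6 beside 0.197% of the genes it gave an adjusted p. In 0 of the 6 did the groups fail to overlap, against 4.56% of tested genes. Their median log2 fold change (Hoxb8 over non-Hoxb8) was -0.06, with 2 of 6 above 0, beside a median of 0.00 and 50.0% above 0 over all tested genes. For 5 of the 6, the 95% interval of the log2 fold change lay within 1 on either side of 0, which held for 43.8% of tested genes, and the exception was Csf1.

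**Figure D1:**
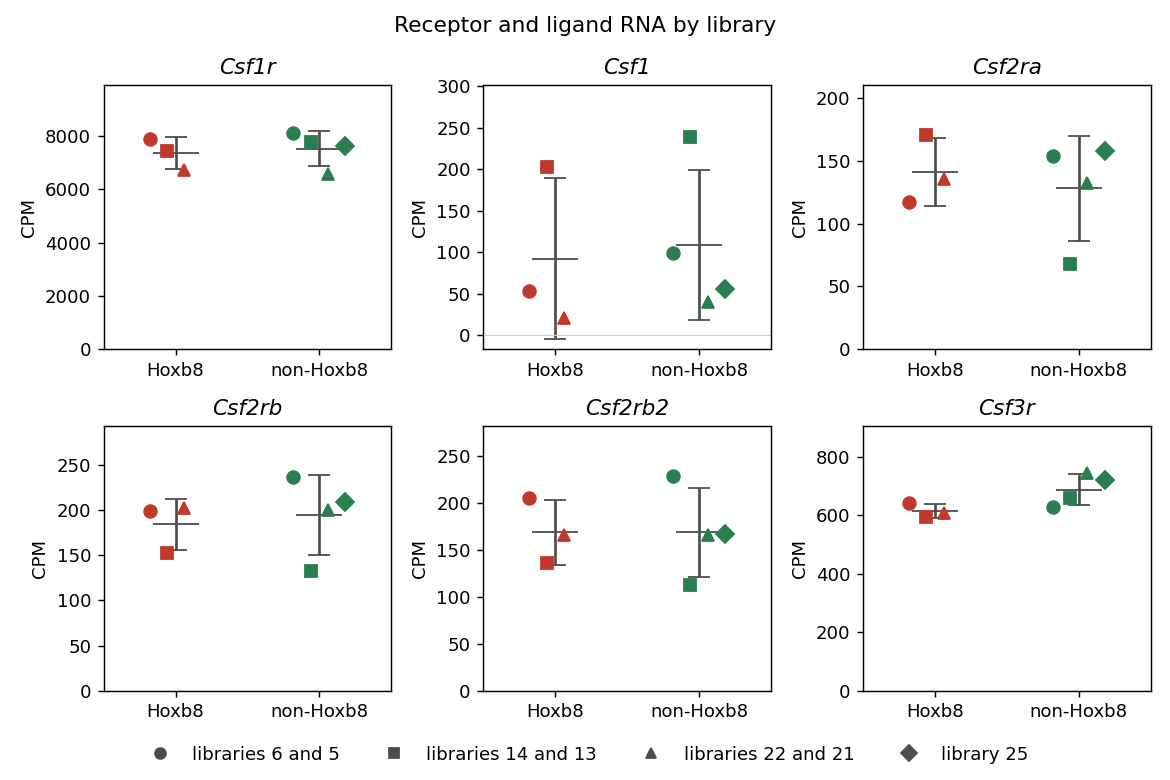
CPM of the 6 genes in each library, with Hoxb8 libraries in red at the left of each panel and non-Hoxb8 libraries in green at the right; horizontal lines are means, bars are SD, and a shared marker shape joins libraries with adjacent numbers. The groups overlap in all 6 panels, and libraries 14 and 13 lie at 203 and 239 CPM for Csf1, above the other 5.

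**Figure D2:**
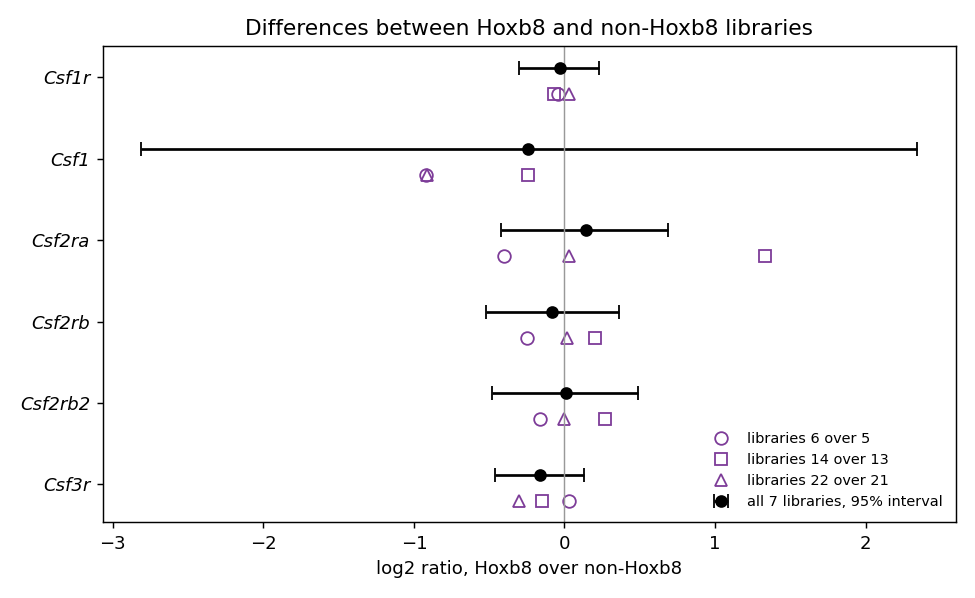
Log2 ratio of Hoxb8 over non-Hoxb8 for each gene, with black points and 95% intervals from edgeR on all 7 libraries and open markers for the ratios of libraries with adjacent numbers. The interval of Csf1r runs from -0.30 to 0.23 and that of Csf1 from -2.81 to 2.34, while the 3 open markers of Csf1 all lie below 0.

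Csf1r, the receptor for CSF-1 and interleukin 34, was by far the most abundant of the group. It stood at 7900, 7430 and 6710 CPM in Hoxb8 libraries 6, 14 and 22, against 8110, 7770, 6580 and 7610 CPM in non-Hoxb8 libraries 5, 13, 21 and 25. The highest and the lowest library were both non-Hoxb8, and the Hoxb8 values lay inside the range of the others. The log2 fold change was -0.03 ± 0.12 (SE; 95% interval -0.30 to 0.23; edgeR adjusted p = 1 when rounded). Adjacent libraries differed by log2 ratios of -0.04 (6 over 5), -0.07 (14 over 13) and 0.03 (22 over 21). Per kilobase of annotated exon, Csf1r ranked 14 of 13986 genes by its mean over the 7 libraries. In GENCODE M21 on GRCm38 it is a protein-coding gene on chromosome 18, plus strand, from 61100598 to 61132149. It overlaps Hmgxb3 on the opposite strand, which stood at 23.6 to 65.4 CPM over the 7 libraries, and reads without strand cannot tell the genes apart where they overlap.

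Csf1, which encodes the ligand CSF-1, was the gene of the group that varied most between libraries. It stood at 52.5, 203 and 20.9 CPM in Hoxb8 libraries 6, 14 and 22, against 99.4, 239, 39.3 and 55.5 CPM in non-Hoxb8 libraries 5, 13, 21 and 25. Libraries 13 and 14 were the highest, 1 from each group, and library 22 the lowest, so the order of the libraries did not follow the groups. The highest library exceeded the lowest 11.4-fold. The log2 fold change was -0.24 ± 1.02 (SE; 95% interval -2.81 to 2.34; edgeR adjusted p = 1 when rounded), an interval from the fit without pairs that reaches far to both sides of 0. Without Hoxb8 library 14 it was -1.56 (edgeR adjusted p = 0.999), and without non-Hoxb8 library 13 it was 0.51 (edgeR adjusted p = 0.988). Without both it was -0.83 (edgeR unadjusted p = 0.086, adjusted p = 1 when rounded).

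Within each pair of adjacent libraries Csf1 was lower in the Hoxb8 one, by log2 ratios of -0.92 (6 over 5), -0.24 (14 over 13) and -0.91 (22 over 21). Of all tested genes, 12.1% were lower in the Hoxb8 library of all 3 pairs, and Csf1 was the only one of the 6. With the pairs in the fit, the log2 fold change was -0.68 ± 0.21 (SE, edgeR unadjusted p = 0.0036), which did not pass over all genes (edgeR adjusted p = 0.413). Library 25 has no adjacent partner, so the group difference in that fit rests on the 3 pairs, with 2 residual degrees of freedom. In that fit 0 of the 6 were called, beside 0.362% of tested genes, and 1 of the 6 had an unadjusted p below 0.05, beside 5.02% of tested genes. With libraries 13 and 14 left out, which leaves fewer pairs still, the paired value was -0.93 and again did not pass (edgeR adjusted p = 0.398).

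Csf1 was highest in libraries 13 and 14, where inflammatory RNA was highest, but did not follow it across the other libraries. The 10 genes of the inflammatory list (Il1b, Tnf, Cxcl2, Cxcl10, Ccl3, Ccl4, Ccl7, Nfkbia, Nfkbiz and Ptgs2) summed to 352, 5580 and 179 CPM in Hoxb8 libraries 6, 14 and 22, against 325, 3410, 153 and 1070 CPM in non-Hoxb8 libraries 5, 13, 21 and 25. The libraries highest in that sum, 14 and 13, were those highest in Csf1, though in the opposite order. Library 25, next in that sum, had less Csf1 than library 5 (55.5 against 99.4 CPM). In each adjacent pair the sum was higher in the Hoxb8 library, where Csf1 was lower. In edgeR 0 of the 10 were called, 9 were above 0 and their median log2 fold change was 0.96. With the pairs in the fit, 3 of the 10 were called higher in Hoxb8 microglia, beside 0.362% of tested genes. These were Il1b at 1.08 (edgeR adjusted p = 0.00201), Cxcl2 at 1.70 (edgeR adjusted p = 0.0219) and Ccl7 at 4.24 (edgeR adjusted p = 0.000186), all named after their values were seen. The list itself was chosen with earlier results of these data known, so this count is a description. The 12 immediate early genes (Fos, Jun, Egr1 and others that respond to cell stress) summed to 1590, 8670 and 742 CPM in Hoxb8 libraries 6, 14 and 22, against 1620, 6540, 592 and 8350 CPM in non-Hoxb8 libraries 5, 13, 21 and 25. Library 25 was thus among the highest in immediate early RNA while its Csf1 level, 55.5 CPM, lay in the middle. Libraries 13 and 14 were also those with the least Xist RNA. The part of inflammatory RNA or of sex in the spread of Csf1 was not tested.

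**Figure D3:**
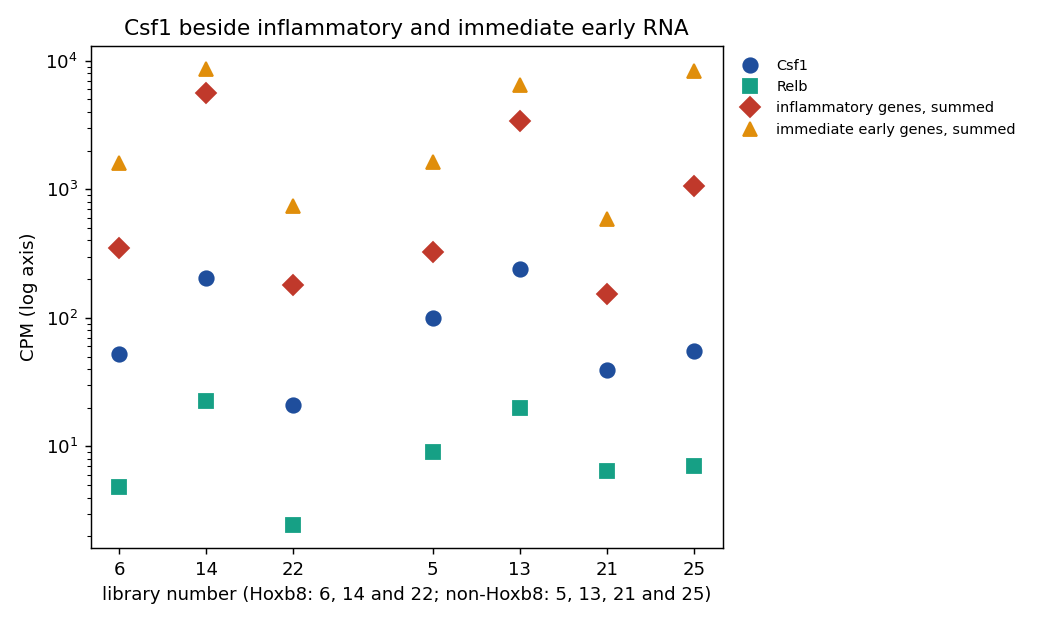
CPM on a log axis in each library, with Hoxb8 libraries 6, 14 and 22 at the left and non-Hoxb8 libraries at the right, for Csf1, Relb and the summed inflammatory and immediate early lists. Csf1 and Relb are highest in libraries 14 and 13, and library 25 is high in immediate early RNA (8350 CPM) but at 55.5 CPM for Csf1.

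The genes nearest to Csf1 in profile over the 7 libraries were Syp, Relb and Rasgef1b, with root mean square differences of 0.296, 0.320 and 0.363 between log2 CPM centred on each gene's mean, where the median over tested genes was 1.26. Relb, a subunit of the transcription factor NF-kB, stood at 4.81, 22.4 and 2.43 CPM in Hoxb8 libraries 6, 14 and 22, against 9.06, 20.0, 6.41 and 7.04 CPM in non-Hoxb8 libraries 5, 13, 21 and 25. It was highest in libraries 14 and 13 and lowest in library 22, as Csf1 was. Syp, known as a protein of synaptic vesicles, reached 10.3 CPM at most. These likenesses are a description over 7 libraries and carry no test.

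Csf1 is on the minus strand of chromosome 3, from 107741048 to 107760469 (GENCODE M21, GRCm38), and no other annotated gene overlaps it.

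Csf2ra, the alpha chain that binds GM-CSF, stood at 117, 170 and 135 CPM in Hoxb8 libraries 6, 14 and 22, against 154, 67.8, 132 and 158 CPM in non-Hoxb8 libraries 5, 13, 21 and 25. Library 14 was the highest and library 13 the lowest, so that the extremes fell in adjacent libraries of opposite groups. The log2 fold change was 0.14 ± 0.26 (SE; 95% interval -0.42 to 0.69; edgeR adjusted p = 1 when rounded). The ratio of adjacent libraries was 1.33 on the log2 scale for 14 over 13, but -0.40 for 6 over 5 and 0.03 for 22 over 21. Without libraries 13 and 14 the log2 fold change was -0.24, so its sign rested on them. The gene lies on chromosome 19, minus strand, from 61223957 to 61228429.

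The beta chains that complete the GM-CSF and IL-3 receptors did not differ detectably between groups. Csf2rb, the shared chain, stood at 199, 152 and 202 CPM in Hoxb8 libraries 6, 14 and 22, against 237, 133, 200 and 209 CPM in non-Hoxb8 libraries 5, 13, 21 and 25. Libraries 13 and 14, 1 from each group, were the lowest. Its log2 fold change was -0.08 ± 0.21 (SE; 95% interval -0.52 to 0.36; edgeR adjusted p = 1 when rounded).

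Csf2rb2, the IL-3-specific chain, stood at 205, 136 and 166 CPM in Hoxb8 libraries 6, 14 and 22, against 229, 113, 166 and 167 CPM in non-Hoxb8 libraries 5, 13, 21 and 25. The same 2 libraries were lowest, and the groups overlapped. Its log2 fold change was 0.01 ± 0.23 (SE; 95% interval -0.48 to 0.49; edgeR adjusted p = 1 when rounded).

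Both beta chain genes lie on chromosome 15, Csf2rb2 on the minus strand from 78282507 to 78305721 and Csf2rb on the plus strand from 78325752 to 78353847, with 20030 bases between them. Their longest annotated coding sequences were identical at 2503 of 2628 aligned bases (95.2%). As shown by the 242 bases that follow, a read can fit both genes equally well: this is the longest stretch without a difference, from coding position 2083 of each gene, counted from 1 at the start codon.
Csf2rb and Csf2rb2, shared: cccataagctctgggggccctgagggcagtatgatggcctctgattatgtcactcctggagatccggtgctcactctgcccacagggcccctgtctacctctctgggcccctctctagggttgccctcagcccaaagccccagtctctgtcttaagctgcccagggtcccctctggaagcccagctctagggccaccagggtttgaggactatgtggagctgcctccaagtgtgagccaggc
The 90-base window in which the genes differ most is shown next, with its 16 differing bases in capitals. It starts at coding position 308 in Csf2rb and 311 in Csf2rb2, in the part that encodes the outside of the receptor.
Csf2rb: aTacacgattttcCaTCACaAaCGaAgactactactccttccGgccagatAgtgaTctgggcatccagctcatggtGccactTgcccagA
Csf2rb2: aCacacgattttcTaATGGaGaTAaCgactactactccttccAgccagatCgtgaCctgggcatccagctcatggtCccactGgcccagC
Of all stretches of 50 bases, the read length, 12.3% of those in Csf2rb transcripts and 18.4% of those in Csf2rb2 transcripts were shared by both genes, and none was shared between any other 2 of the 6. The sources used here do not say how the authors' counting treated such reads, so the split between the beta chains is uncertain.

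Counted together, the beta chains stood at 404, 288 and 369 CPM in Hoxb8 libraries 6, 14 and 22, against 465, 246, 366 and 376 CPM in non-Hoxb8 libraries 5, 13, 21 and 25. As 1 row in the fit, their log2 fold change was -0.04 (edgeR adjusted p = 1 when rounded). Csf2rb2 held 50.8%, 47.2% and 45.2% of the summed counts in Hoxb8 libraries 6, 14 and 22, against 49.2%, 45.9%, 45.4% and 44.4% in non-Hoxb8 libraries 5, 13, 21 and 25. The exact 95% intervals of these shares ran from 49.0% to 52.6% in library 6 and from 42.3% to 46.5% in library 25, and the groups overlapped (47.7% ± 2.86 in Hoxb8 microglia, SD, n = 3, against 46.2% ± 2.07 in non-Hoxb8 microglia, SD, n = 4). The summed beta chain counts were 3.47, 1.69 and 2.73 times the Csf2ra counts in Hoxb8 libraries 6, 14 and 22, against 3.02, 3.63, 2.78 and 2.38 times in non-Hoxb8 libraries 5, 13, 21 and 25. The lowest and the highest ratio were again those of libraries 14 and 13, where Csf2ra was at its own extremes. Csf2rb and Csf2rb2 were also the closest in profile of any 2 of the 6, with a root mean square difference of 0.126 on the log2 scale, although shared reads tie them.

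Csf3r, the G-CSF receptor, was the second most abundant of the 6. It stood at 642, 594 and 607 CPM in Hoxb8 libraries 6, 14 and 22, against 627, 660, 746 and 719 CPM in non-Hoxb8 libraries 5, 13, 21 and 25. Hoxb8 values lay at the low end, and library 6 was the only Hoxb8 library above the lowest non-Hoxb8 one. The log2 fold change was -0.16 ± 0.14 (SE; 95% interval -0.46 to 0.13; edgeR adjusted p = 1 when rounded), with ratios of 0.03 (6 over 5), -0.15 (14 over 13) and -0.30 (22 over 21) in adjacent libraries. It kept a value below 0 under all 18 alternatives tried, from -0.21 to -0.06, and passed in none. The gene lies on chromosome 4, plus strand, from 126024550 to 126044440.

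Other genes of neutrophils, the cells best known for Csf3r, were at or near 0. Of 11 neutrophil markers 4 were in the table, and these summed to between 0 and 3.64 CPM in Hoxb8 cells, against 0 to 0.172 CPM in non-Hoxb8 cells, with Cxcr2 at 0 counts in all 7. S100a8 and S100a9 had counts in Hoxb8 library 22 alone, at 0.674 and 2.43 CPM. The part of neutrophils in the Csf3r level was not tested. Of the other neutrophil markers, Retnlg, Ly6g, Camp, Ltf, Mmp8, Mpo and Elane were not analysed here.

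Levels between genes were compared per kilobase of annotated exon. On that scale (CPM per kilobase), Csf1r averaged 1270 ± 103 in Hoxb8 and 1300 ± 114 in non-Hoxb8 microglia (SD, n = 3 and 4, here and in what follows), and Csf3r 170 ± 6.94 in Hoxb8 and 191 ± 15 in non-Hoxb8 microglia. Csf2ra came next with 49.0 ± 9.52 in Hoxb8 and 44.6 ± 14.6 in non-Hoxb8 microglia. The chain Csf2rb2 had 35.7 ± 7.33 in Hoxb8 and 35.6 ± 9.99 in non-Hoxb8 microglia. The order of means was the same in both groups, with Csf2rb after it at 25.3 ± 3.82 in Hoxb8 and 26.7 ± 6.04 in non-Hoxb8 microglia. The ligand Csf1 was last, at 17.4 ± 18.4 in Hoxb8 and 20.5 ± 17.2 in non-Hoxb8 microglia. Over the 7 libraries Csf1r ranged from 1140 to 1400 and Csf3r from 164 to 207, clear of each other and of the rest, whereas the ranges of Csf2ra, Csf2rb2, Csf2rb and Csf1 overlapped. With the longest coding transcript as the length, Csf2rb stood at 37.6 in Hoxb8 and 39.7 in non-Hoxb8 microglia, above Csf2rb2 at 35.7 in Hoxb8 and 35.6 in non-Hoxb8 microglia, so the order of the beta chains depended on the annotated length.

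The 6 genes also differed in how much libraries of 1 group varied. The SD of log2 CPM within groups was 0.10 for Csf3r and 0.13 for Csf1r, against medians of 0.21 each for the 200 tested genes nearest to them in level, of which 10 and 31 had a lower SD. Csf2rb and Csf2rb2 had SDs of 0.31 and 0.37, above 165 and 167 of their 200 nearest genes. Csf2ra had 0.48, above 193 of 200, and Csf1 had 1.36, above 198 of 200, where the median was 0.32. The receptors for the CSF-1 and G-CSF ligands were thus the steadiest of the 6, and the ligand Csf1 the most variable.

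**Figure D4:**
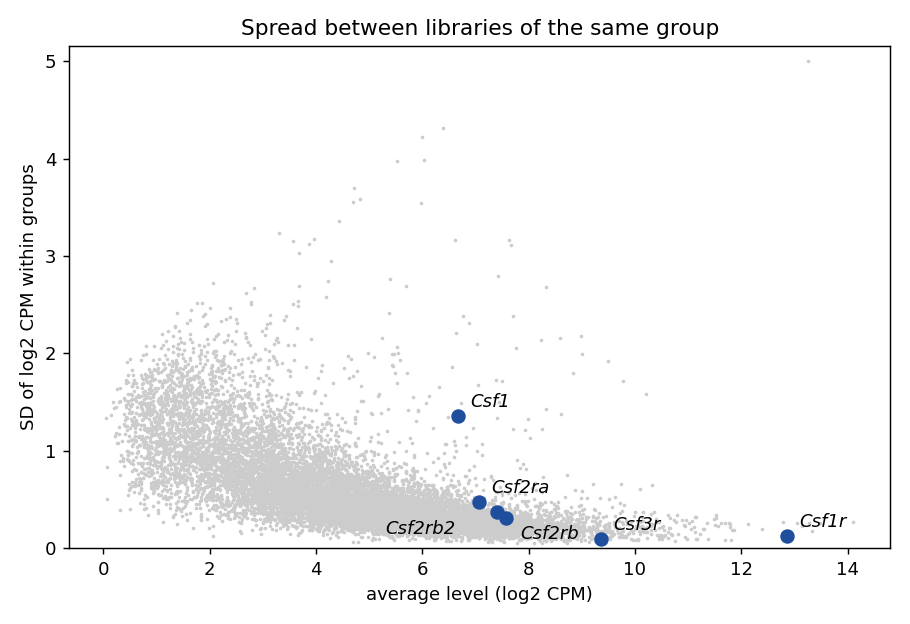
SD of log2 CPM within groups (vertical axis) against average log2 CPM (horizontal axis) for all tested genes in grey and the 6 genes in blue. Csf1 lies at 1.36, far above genes of like level, and Csf3r and Csf1r lie at 0.10 and 0.13, in the lower part of the cloud.

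Genes nearest in profile to the receptors were picked for likeness to genes without a call, so their own lack of calls adds nothing. Csf1r and Csf3r departed from their own means by root mean squares of only 0.108 and 0.113 on the log2 scale. For each, the median difference over tested genes was 0.46. Csf1r lay nearest to Ggta1, Yipf6 and Eif4g2 (root mean square differences of 0.029, 0.058 and 0.060 on the log2 scale over 7 libraries), and Csf3r to Itpr2, Prrc2b and Mertk (0.028, 0.043 and 0.052). Mertk, a receptor that macrophages use to take up dying cells, stood at 992, 983 and 1040 CPM in Hoxb8 libraries 6, 14 and 22, against 1010, 1120, 1190 and 1130 CPM in non-Hoxb8 libraries 5, 13, 21 and 25. Csf2ra lay nearest to Arap2, Inpp5f and Mcat (0.115, 0.123 and 0.125), Csf2rb to Zfp644, Tsc22d4 and Mfap3 (0.074, 0.080 and 0.088), and Csf2rb2 to Kcnk6, Mfap3 and BC037034 (0.074, 0.076 and 0.089).

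Of the other ligands, Csf2, which encodes GM-CSF, had 0, 30 and 0 counts in Hoxb8 libraries 6, 14 and 22, against 0, 4, 0 and 0 counts in non-Hoxb8 libraries 5, 13, 21 and 25. Its RNA was thus found in the 2 libraries high in inflammatory RNA, and at 4.05 CPM in library 14 it did not pass the filter for testing. Il34, Csf3, Il3 and Il5 were not analysed here. Of 8 related receptors, 4 were in the table and 3 were tested, with 0 called. Flt3, the receptor of dendritic cell precursors and a relative of Csf1r, had a log2 fold change of 0.42 ± 0.88 (SE). Pdgfrb, a kinase of mural cells encoded by another relative of Csf1r, had 0.70 ± 0.88, and Ptprz1, a phosphatase of glia that binds interleukin 34, had -0.68 ± 1.14. Kit, the stem cell factor receptor, had 0 counts in all 7 libraries.

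Genes that carry the signal from Csf1r were tested in full, and 0 of 20 were called in either direction (median log2 fold change 0.04, 11 above 0, beside 0.00 over all tested genes). Those of smallest p were Fyn, a Src family kinase, at 0.84 ± 0.42 (SE; edgeR unadjusted p = 0.062), Plcg2, a phospholipase, at -0.31 ± 0.19 (edgeR unadjusted p = 0.12), and Sos1, an activator of Ras, at -0.30 ± 0.20 (edgeR unadjusted p = 0.16). Plcg2 stood at 115, 107 and 117 CPM in Hoxb8 libraries 6, 14 and 22, against 127, 149, 165 and 119 CPM in non-Hoxb8 libraries 5, 13, 21 and 25, so that its groups did not overlap, as in 4.56% of tested genes. All 20 had an edgeR adjusted p of 1 when rounded.

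Of 10 transcription factors that act on Csf1r, 0 were called (median log2 fold change -0.05, 5 above 0). Cebpb had 0.77 ± 0.61 (SE), Runx1 0.18 ± 0.16 and Jun -0.88 ± 1.05. Of the 12 JAK, STAT, SOCS and target genes, 11 were tested and 0 called (median 0.16, 6 above 0). The smallest p there belonged to Socs2, an inhibitor of cytokine signalling, at 1.10 ± 1.06 (SE), followed by the kinases Jak1 at -0.17 ± 0.17 and Jak2 at 0.16 ± 0.21.

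Summed markers of border macrophages and monocytes stood higher in every Hoxb8 library than in any non-Hoxb8 library, beside 6 genes of which 0 were called. For border macrophages the margin was narrow, at 207 CPM in Hoxb8 library 22 against 204 CPM in non-Hoxb8 library 25. The 11 border macrophage markers had a median log2 fold change of 2.21 with 11 above 0, and summed to 207 to 856 CPM in Hoxb8 cells, against 36.2 to 204 CPM in non-Hoxb8 cells, although 0 of them were called in the unpaired edgeR fit, beside 0.0337% of tested genes. That call changed with the fit, since 6 of the 11 were called higher with the pairs, beside 0.362% of tested genes, and 2 by DESeq2, beside 0.197%. All marker lists were chosen with earlier results of these data known, so such counts describe the lists and do not test them. Mrc1, a mannose receptor of border macrophages named after its values were seen, stood at 175, 437 and 114 CPM in Hoxb8 libraries 6, 14 and 22, against 37.8, 76.9, 25.0 and 106 CPM in non-Hoxb8 libraries 5, 13, 21 and 25, and did not overlap between the groups. Of the rest of that list, Cbr2, F13a1, Clec12a and Cd209f did not overlap either. Cd163, Lyve1, Pf4, Ms4a7, Siglec1 and Folr2 did overlap. Of the 10 monocyte markers in the table, 9 were tested, 1 was called higher in the unpaired edgeR fit (Itga4), 4 with the pairs and 5 by DESeq2, and the median was 1.40, with sums of 305 to 685 CPM in Hoxb8 cells, against 133 to 207 CPM in non-Hoxb8 cells. Of the markers of classical monocytes, Ccr2, a chemokine receptor, stood at 53.2, 44.0 and 34.9 CPM in Hoxb8 libraries 6, 14 and 22, against 15.2, 12.5, 18.8 and 20.4 CPM in non-Hoxb8 libraries 5, 13, 21 and 25 (DESeq2 adjusted p = 0.0191, edgeR adjusted p = 0.460), while Ly6c2 had 0 counts in all Hoxb8 libraries and 26 counts in non-Hoxb8 library 5 alone. Spn and Treml4 had counts in all 3 Hoxb8 libraries and 0 counts in all 4 non-Hoxb8 libraries. These 4 were also named after their values were seen, as were Lyz2 and Vcan. Lyz2 made up the largest part of the monocyte sum in each library. It stood at 210, 469 and 185 CPM in Hoxb8 libraries 6, 14 and 22, against 100, 185, 99.7 and 117 CPM in non-Hoxb8 libraries 5, 13, 21 and 25. Its groups overlapped. Of the 9 tested monocyte markers 8 were above 0, and Vcan went the other way, at -0.88. The 8 dendritic cell markers summed to 33.9 to 84.4 CPM in Hoxb8 cells, against 23.7 to 34.5 CPM in non-Hoxb8 cells. Of these, 6 were tested, with a median of 0.41. In the unpaired edgeR fit 1 was called higher (Cd209a), and with the pairs 2 were (Cd209a and Clec10a). DESeq2 called 0 of them, but it gave Cd209a no p-value. The neuron, astrocyte, oligodendrocyte and endothelial lists had medians of -0.39, -0.51, -0.35 and -0.08, with 0 genes called in each by edgeR without or with the pairs, or by DESeq2. Csf1r stood at 6580 CPM or more in every library, but sums of marker CPM do not measure the share of cells. The part of such cells in the levels of the 6 genes was not tested.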

How the data were processed

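RNA of sorted cortical microglia was sequenced as 50-base single-end reads without strand. Alignment by the authors used STAR 2.4.1c, GRCm38 and GENCODE release M5, per the labels' protocols; featureCounts, Subread and DESeq2 appear, without settings, in the submitters' processing notes. The deposited table gives raw counts for each gene symbol in 7 libraries, with no column left unused. Of the 14616 rows, 22 carry a spreadsheet's date number in place of a gene name, with 0.120% to 0.151% of each library's counts. Neither library sizes nor tests include them. Which rows the authors kept, and why, is not stated in the labels.

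For the main test, the deposited counts went into edgeR 4.0.16 under R 4.3.3 (filterByExpr, TMM, glmQLFit with robust on, then glmQLFTest), with group as the one term and 11874 genes, with Benjamini-Hochberg adjustment over all of them at 0.05. CPM are deposited counts per 1000000 of the TMM-scaled library size. Standard errors are the log2 fold change over the square root of F. DESeq2 1.42.0 and limma 3.58.1 (voom) were alternatives, as were fits that omit 1 library at a time. Simulated counts with known changes served to check the script. Intervals of shares are exact Clopper-Pearson intervals and cover counting error only, since the reads carry no molecular identifiers. GENCODE M21, built on that same assembly, gave positions, lengths and transcript sequences.

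Labels do not tie libraries to animals. Libraries with adjacent numbers were taken as possible pairs. Across genes, such libraries departed from their group means together (r of 0.18, 0.28 and 0.19), each above the set limit of 0.1. That r was not computed for libraries without adjacent numbers, so it does not show that adjacent ones were closer than others. The replicate numbers given in accession order were used only as names. Library 25 has no adjacent partner, so it adds nothing to the group difference in fits with the pairs.

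The 6 genes and all lists were chosen with earlier results of these data known. Named genes were the 6 genes, every measured ligand and related receptor, the 3 genes of smallest p in each other pathway list, any gene past the test there, and the 3 genes nearest in profile to each of the 6. Genes named outside this rule were chosen after their values were seen, also where this is not said beside them, as with S100a8 and S100a9. Hmgxb3 was named for its overlap with Csf1r.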

Additional observations from a re-analysis of the deposited data

Results flagged for a closer look

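In the 4 non-Hoxb8 libraries, 61 measures (the tested genes among the 6 and the pathway lists, and the summed levels of the marker lists) were examined for a single library far outside the rest, and 3 were found where 3.05 are expected by chance. None of the 6 genes was among them. Pik3cg, a kinase subunit of phosphoinositide signalling, stood at 598 CPM in library 13 against 748 to 766 CPM in the other non-Hoxb8 libraries. Src stood at 6.57 CPM in library 21 against 10.6 to 11.3 CPM in the others, and Socs2 at 9.93 CPM in library 13 against 0.824 to 1.12 CPM.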

How the results depend on the processing

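Of the 6 genes, 0 were called under any of the 18 alternatives tried, 1 of which (libraries 13 and 14 left out with the replicate block) was chosen after seeing the data. Values near 0 changed sign when 1 library was left out, with log2 fold changes from -0.09 to 0.03 for Csf1r, -1.56 to 0.51 for Csf1, -0.07 to 0.25 for Csf2ra, -0.22 to 0.04 for Csf2rb and -0.16 to 0.19 for Csf2rb2, against -0.21 to -0.12 for Csf3r. Without libraries 13 and 14, Csf2ra was at -0.24 (-0.20 with the pairs) and Csf2rb2 at -0.02 (-0.09 with the pairs), and without libraries 21, 22 and 25 Csf2rb2 was at -0.01. The pairing by adjacent library numbers gave -0.02 for Csf1r, -0.68 for Csf1, 0.31 for Csf2ra, -0.01 for Csf2rb, 0.04 for Csf2rb2 and -0.14 for Csf3r, and changed no call among the 6. Over all genes 4 were called, and the count was 26 with DESeq2, 0 with limma-voom, 43 with the pairs, 0 to 6 with 1 library left out, 2 without libraries 13 and 14 (38 with the pairs) and 0 without libraries 21, 22 and 25. The cause was not tested. Csf1 was at -0.83 without libraries 13 and 14. Its SE was 1.02 without and 0.21 with the pairs, so its precision rests on a pairing that the labels do not state.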

Other observations

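Genes induced by cytokine signals through JAK and STAT were chosen here after their values were seen. Pim1, a kinase that STAT proteins induce, stood at 1.60, 28.8 and 0.270 CPM in Hoxb8 libraries 6, 14 and 22, against 0.961, 16.3, 1.92 and 3.09 CPM in non-Hoxb8 libraries 5, 13, 21 and 25, and was thus highest in libraries 14 and 13. These were also the libraries highest in inflammatory RNA and the only ones with Csf2 counts (30 and 4). A link between Pim1 and Csf2 was not tested. Socs3, an inhibitor of STAT3 signalling, stood at 23.9, 136 and 19.4 CPM in the Hoxb8 libraries, against 40.5, 132, 12.5 and 122 CPM in the non-Hoxb8 libraries in the same order, so that library 25 was as high as libraries 13 and 14. Cish, a target of STAT5, did not pass the filter and stood at 0.267, 3.64 and 2.56 CPM in the Hoxb8 libraries, against 0, 0.255, 0.481 and 0.343 CPM in the non-Hoxb8 libraries.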
